A study of Mus musculus with 24 samples.

Results

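The developmental transcription factors described here are 49 of the 6970 genes that could be named on the arrays of this series. They were chosen by symbol alone: a gene counted if its probe carried exactly 1 symbol in the platform annotation and that symbol began like those of the Hox, Sox, Pax, Fox, Tbx, Lhx, sine oculis, Gata, Meis, Pbx, Nkx, Msx, Dlx, Irx, Otx, Klf, Hes, Hey, Id, Tgif, Twist or Snai families. The rule used no measured value. No gene of the Pax, sine oculis, Lhx, Nkx, Msx, Dlx, Hes or Snai families had such a probe, and the only match to Twist was Twistnb, which is a subunit of RNA polymerase I and not a Twist factor, so 48 of the 49 are developmental regulators.

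The RNA came from mouse embryos in culture. Heat-shocked embryos were held at 43 °C for 15 min, put back at 37 °C and collected after 1 h, and control embryos stayed at 37 °C throughout. Neither their strain and stage nor any pooling of embryos is given. Total RNA of both groups was hybridised together on arrays with 2 channels, 24 in all, from 3 numbered treatments on 2 slide types that carry different probes. Each treatment had 4 arrays per slide type: a pair with heat-shocked RNA in channel 1, called forward arrays here, and a pair with it in channel 2, called reverse arrays. Forward and reverse arrays were averaged with equal weight, so n = 3 treatments for each value below. The labels do not say that the treatments were separate litters or cultures, so the p-values reach no further than these 3 treatments. In limma the error of a gene joins its own spread with that of all genes of its slide type. A p-value therefore does not follow from the printed SD alone: Hoxb1 had an SD of 0.0066 and a limma standard error of 0.0532.

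A value is the authors' deposited log ratio, centred on the median of its array and turned so that heat-shocked RNA counts as the numerator when channel 1 is divided by channel 2. The log base and the numerator are unknown: 1 log unit would be 2-fold on base 2 and 2.72-fold on natural logs, and the mirror-image convention would swap positive and negative for every gene. The sides are therefore marked by heat shock genes. On slide type 1 Hsph1 stood at 2.28, Hsp90aa1 at 1.18, Bag3 at 0.73 and Dnajb1 at 0.68, all positive, and on slide type 2 Hspb1 stood at 2.23 and Hsp90aa1 at 1.14. Across all probes, arrays of the same order correlated at r of 0.29 to 0.82 on slide type 1 and −0.34 to 0.94 on slide type 2, and arrays of opposite order at −0.04 to 0.54 and −0.64 to 0.68. The means of the treatments correlated at r of 0.70 to 0.80 and of 0.82 to 0.90. Probes are not independent replicates, and these correlations are descriptions.

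These proteins read the signals that pattern an embryo. Hox proteins set position along the body axis together with the Meis and Pbx cofactors, which share their type of homeobox with the repressors Tgif1 and Tgif2. Sox, Fox, Gata and Klf factors bind DNA through a high mobility group box, a forkhead domain or zinc fingers and direct lineages such as neural tissue, heart, blood and endoderm. Id proteins have a helix-loop-helix but no basic region, and so hold other helix-loop-helix factors off DNA; Hes and Hey proteins are repressors downstream of Notch.

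Of the 49 members, 19 passed the limma test in a table at an adjusted p under 0.05, and 30 did not. On slide type 1, 3 of 31 members were positive and 2 negative, 16.1% in all. Of all 3838 genes there, 5.73% were positive and 5.65% negative, 11.4% in all. On slide type 2 the members counted 5 positive and 9 negative of 23, 60.9% in all. Of all 4075 genes there, 18.5% were positive and 31.9% negative, 50.4% in all. The members' shares thus lay near the background of each slide type, and a call on slide type 2 was common among genes of any kind. Their median value was −0.018 on slide type 1 and −0.039 on slide type 2, beside −0.038 and −0.049 over all genes. Leaving out Twistnb, which did not pass, gave the same counts among 30 members of slide type 1. Without centring, the median over all genes moved to 0.27 on slide type 1 and to 0.034 on slide type 2, and the members' medians to 0.29 and 0.044. The members that then passed were Klf6, Id1 and Klf11 on slide type 1, and Tgif1, Sox4 and Gata2 on slide type 2; the calls over all genes then numbered 263 positive and 5 negative on slide type 1 and 76 and 65 on slide type 2. With centring on probes of 1 symbol they numbered 254 and 119, and 1249 and 861.

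**Figure D1:**
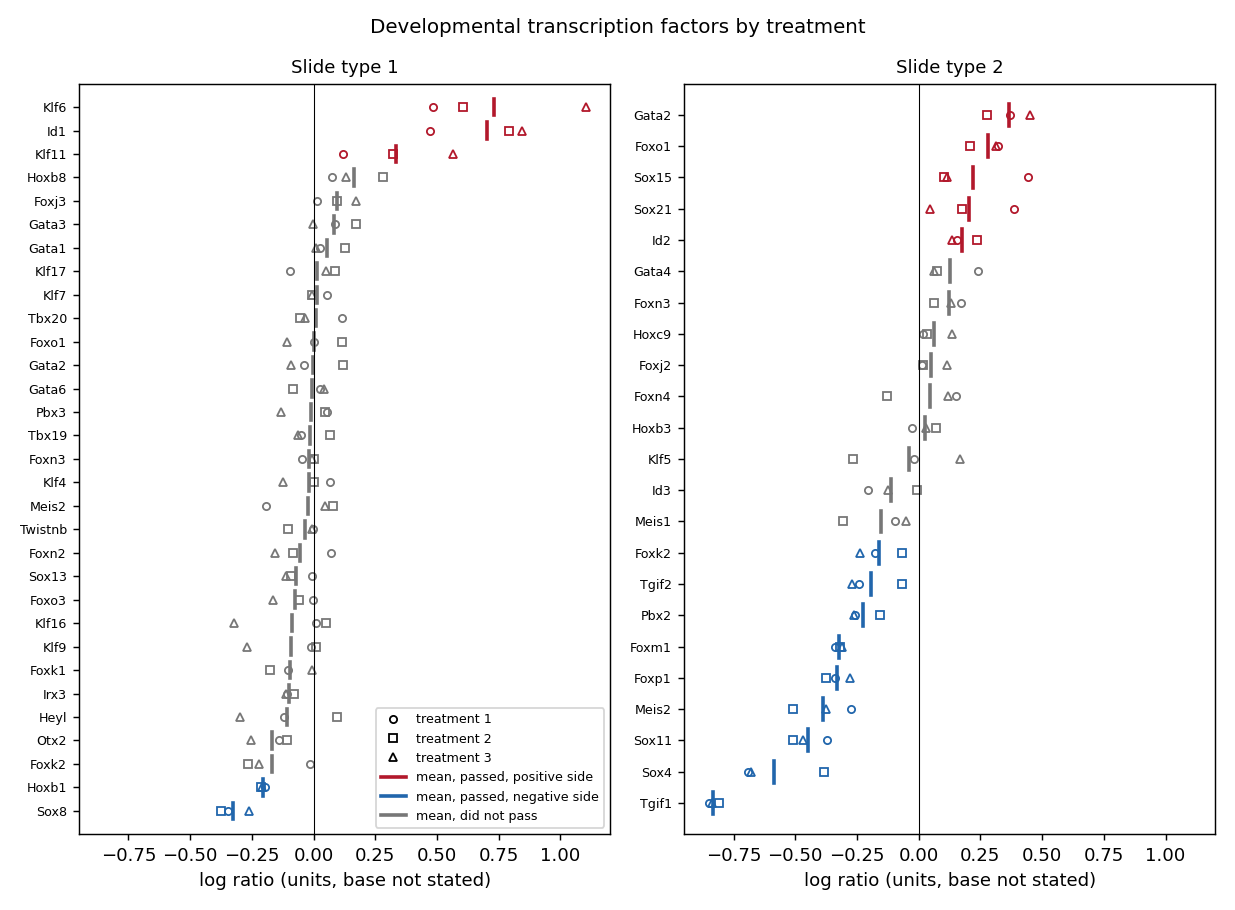
Log ratios (units, base not stated) of the 31 members on slide type 1 and the 23 on slide type 2, one row per gene; symbols are the 3 treatments, bars their mean, and colour shows whether the gene passed the limma test and on which side. Klf6 and Id1 lead on slide type 1 at 0.73 and 0.70, and Tgif1 stands apart on slide type 2 at −0.83.

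The promoters of the 2 members with the largest mean on each side among those with a window in the RefSeq table are shown. Id1, at 0.70, had no window and is left out. Each window runs from 250 bases before to 50 bases after a transcription start in RefSeq, build GRCm38.p6, read 5′ to 3′ on the gene's strand. Capitals mark matches to the heat shock element half-site pairs GAANNTTC or TTCNNGAA (each the same on both strands), to the CArG box that binds serum response factor, or to the site GTGGGAA of the Notch effector RBPJ on either strand. The windows lie at chr13:5861239-5861538 on the plus strand, chr6:88198414-88198713 on the plus strand (1 of 2 windows of the gene), chr17:70851685-70851984 on the minus strand (1 of 5) and chr13:28953650-28953949 on the minus strand.
Klf6: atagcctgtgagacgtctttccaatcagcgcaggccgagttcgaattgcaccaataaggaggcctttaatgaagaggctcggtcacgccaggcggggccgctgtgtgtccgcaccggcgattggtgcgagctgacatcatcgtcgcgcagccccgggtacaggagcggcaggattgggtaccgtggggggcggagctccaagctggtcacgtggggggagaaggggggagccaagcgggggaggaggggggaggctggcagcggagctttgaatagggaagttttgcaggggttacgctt
Gata2: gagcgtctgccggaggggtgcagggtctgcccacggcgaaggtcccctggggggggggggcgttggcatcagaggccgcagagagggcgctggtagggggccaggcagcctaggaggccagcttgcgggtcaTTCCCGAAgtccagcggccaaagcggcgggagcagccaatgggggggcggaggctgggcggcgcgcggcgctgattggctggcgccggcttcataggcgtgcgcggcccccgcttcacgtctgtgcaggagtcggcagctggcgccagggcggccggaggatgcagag
Tgif1: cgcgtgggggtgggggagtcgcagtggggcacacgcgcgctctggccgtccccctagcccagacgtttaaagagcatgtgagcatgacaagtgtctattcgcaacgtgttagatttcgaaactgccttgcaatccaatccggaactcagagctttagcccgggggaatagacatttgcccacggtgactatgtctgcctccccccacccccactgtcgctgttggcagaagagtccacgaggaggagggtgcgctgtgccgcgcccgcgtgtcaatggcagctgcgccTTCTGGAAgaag
Sox4: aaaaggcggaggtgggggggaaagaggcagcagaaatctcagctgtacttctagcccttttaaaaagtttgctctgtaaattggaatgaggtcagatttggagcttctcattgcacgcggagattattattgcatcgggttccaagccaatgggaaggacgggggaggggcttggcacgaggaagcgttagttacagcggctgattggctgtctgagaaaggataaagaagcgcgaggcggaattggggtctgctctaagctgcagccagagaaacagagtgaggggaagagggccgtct

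In these windows Gata2 had the letters TTCCCGAA from base −118 and Tgif1 had TTCTGGAA from base 39 after the start, while Klf6 and Sox4 had none of the 4 patterns. For Gata2 and Tgif1 the window with most matches was printed, and their other windows held no match. Windows were found for 37 of the 49 members, 47 windows in all. A heat shock half-site pair of either kind occurred in 4 of the 47, or 8.51%, and in 15.1% of all 32851 windows. The CArG box occurred in 0 of the 47 windows (1.63% of all), and the RBPJ site in 1, that of Sox15 (2.13% against 6.38% of all). Windows of members had a median GC content of 60.3%, against 52.7% for all windows. Among called members with a window, 1 of 7 positive and 1 of 10 negative genes had a heat shock pair. These matches describe letters only.

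Id proteins are the inhibitors of basic helix-loop-helix factors and are direct targets of BMP signalling in many cells. Id1 had log ratios of 0.47, 0.79 and 0.84 in treatments 1, 2 and 3 on slide type 1. All 12 arrays were positive, from 0.15 to 1.04, and no treatment mean was near 0. Its mean was 0.70 ± 0.20 (SD, n = 3, limma adjusted p = 0.000273), the 25th highest of 3838 genes. Forward arrays averaged 0.67 and reverse arrays 0.73.

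The other Id genes measured had smaller values. Id2 had 0.16, 0.24 and 0.13 on slide type 2, a mean of 0.18 ± 0.053 (SD, n = 3, limma adjusted p = 0.0184), and its 2 probes agreed at 0.15 and 0.20. It was positive on 8 of 12 arrays, with a mean of 0.33 over forward and 0.022 over reverse arrays, and lost its call without treatment 1 or without treatment 3. Id3 had −0.20, −0.01 and −0.13 and did not pass (−0.11 ± 0.099, limma adjusted p = 0.12). Its 6 forward arrays averaged 0.42 and its 6 reverse arrays −0.65, and without treatment 2, where the orders lay farthest apart, it passed (−0.17, limma adjusted p = 0.0248). Whether Id1 differed from Id2 or Id3 was not tested, since Id1 was on another slide type.

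Klf factors are zinc finger proteins, some of which are induced early by serum and stress. Of 7 on slide type 1, Klf6 and Klf11 passed, both on the positive side, where 5.73% of all genes passed, and 5 did not. Klf6, a tumour suppressor and early response gene, had 0.49, 0.60 and 1.10 in treatments 1 to 3, with 12 of 12 arrays positive, from 0.30 to 1.32. Treatment 3 was the highest, and without it the mean was 0.55. Its mean was 0.73 ± 0.33 (SD, n = 3, limma adjusted p = 0.00136), the 23rd highest of 3838 genes. Its 2 probes disagreed in size, at 1.02 ± 0.37 and 0.44 ± 0.29, and each passed in the fit of single probes (limma adjusted p = 6.33e-06 and 0.00322).

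Klf11, a repressor induced by transforming growth factor beta, had 0.12, 0.32 and 0.56, with treatment 3 highest and all 12 arrays positive (0.008 to 0.66). The mean was 0.34 ± 0.22 (SD, n = 3, limma adjusted p = 0.0235), with forward arrays at 0.35 and reverse arrays at 0.32. It lost its call without treatment 3 (mean 0.22, limma adjusted p = 0.0838). Klf4, the pluripotency and epithelial barrier factor, stayed at −0.018 ± 0.096 (95% interval −0.15 to 0.11), with probes at 0.032 and −0.068. Klf9, a thyroid and glucocorticoid hormone target, had −0.09 ± 0.16, Klf7, known from neurons, 0.014 ± 0.033, and Klf16 and Klf17 −0.086 and 0.014. On slide type 2 Klf5, a factor of epithelia and early embryos, had −0.02, −0.265 and 0.17, with no common side among treatments.

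**Figure D2:**
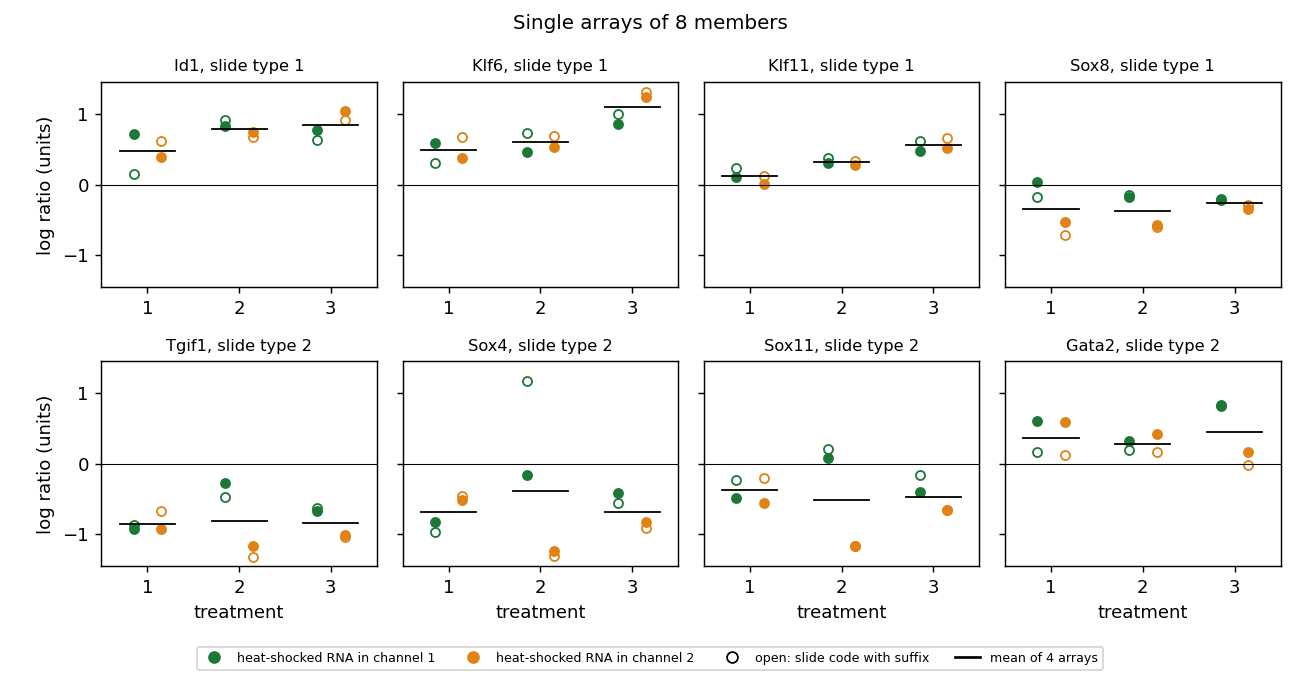
Log ratio (units) on each array of 8 members, by treatment; colour is the channel of the heat-shocked RNA, open symbols are arrays whose slide code has a suffix, and the bar is the mean of the 4 arrays. Id1, Klf6 and Klf11 have all 12 arrays above 0 and Tgif1 all 12 below 0, whereas 1 array of treatment 2 puts Sox4 at 1.18.

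All 12 arrays lay on the positive side for 3 members of slide type 1, Id1, Klf6 and Klf11, where this held for 3.67% of all genes. On slide type 2 all 12 arrays lay on the negative side for 2 members, Tgif1 and Meis2, where this held for 1.84% of all genes. No member had all 12 arrays on the positive side of slide type 2 (1.25% of all genes) or on the negative side of slide type 1 (3.28%).

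The homeobox cofactors and repressors of the Meis, Pbx and Tgif families all had negative means on slide type 2, and 4 of the 5 passed there, where 31.9% of all genes passed on that side. Tgif1, a repressor that binds Smad proteins and is mutated in holoprosencephaly, had −0.85, −0.81 and −0.84, with all treatments alike. All 12 arrays were negative, from −1.32 to −0.28, and both ends of that range came from treatment 2. Its mean of −0.83 ± 0.021 (SD, n = 3, limma adjusted p = 9.53e-09) was the 10th lowest of 4075 genes. It was also the only member to pass when a change of at least 0.58 units was tested (limma treat adjusted p = 0.0231). Its forward arrays averaged −0.64 (limma adjusted p = 0.152 on these alone) and its reverse arrays −1.03 (limma adjusted p = 0.0428). Its paralogue Tgif2 had a smaller value of −0.24, −0.07 and −0.27 (mean −0.19 ± 0.11, limma adjusted p = 0.015), which lost its call without treatment 1 or 3.

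Meis2, a Hox cofactor of limb, heart and hindbrain, had −0.28, −0.51 and −0.38 on slide type 2. No array was positive, and the mean was −0.39 ± 0.12 (SD, n = 3, limma adjusted p = 0.000119). Another probe of Meis2 on slide type 1 had −0.19, 0.08 and 0.05, around 0 (−0.023 ± 0.15, limma adjusted p = 0.888). Meis1, its paralogue, did not pass as a gene (−0.15 ± 0.14, limma adjusted p = 0.0518), but its 3 probes disagreed. They had −0.62 ± 0.095, −0.03 ± 0.094 and 0.20 ± 0.29, and the first passed among single probes (limma adjusted p = 2.3e-05). Pbx2, a partner of Hox and Meis proteins, had −0.26, −0.16 and −0.26 (mean −0.23 ± 0.061, limma adjusted p = 0.0045; call lost without treatment 3). On slide type 1, Pbx3 and the patterning factor Irx3 did not pass, at −0.01 and −0.098, and 0 of the 3 genes of these families there had an unadjusted limma p under 0.05.

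Hox genes had means from −0.21 to 0.16. In absolute size Hoxb1 and Hoxb8 exceeded most genes of slide type 1, at percentiles 87.8 and 81.8. Hoxb1, which sets the identity of a hindbrain segment, had −0.20, −0.21 and −0.21 on slide type 1 and was negative on 11 of 12 arrays. Its mean was −0.21 ± 0.007 (SD, n = 3, limma adjusted p = 0.0359). The call ended without any 1 of the 3 treatments, and without centring its side turned to 0.098. Hoxb8, a trunk gene of the same cluster, had 0.07, 0.28 and 0.13 and did not pass (0.16 ± 0.11, limma adjusted p = 0.129). Hoxb3 and Hoxc9 on slide type 2 averaged 0.024 and 0.061, but Hoxb3 had −0.56 over forward and 0.61 over reverse arrays. Otx2, the head homeobox gene, had −0.14, −0.11 and −0.25 (mean −0.17 ± 0.076, limma adjusted p = 0.0985).

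Of the Sox factors on slide type 2, 2 were positive and 2 negative, so that all 4 passed, where 50.4% of all genes did. Sox4 and Sox11 are the SoxC pair that promotes neuronal and cardiac outflow development. Sox4 had −0.69, −0.38 and −0.68, and Sox11 had −0.37, −0.51 and −0.47, both negative in every treatment. Sox4 averaged −0.58 ± 0.17 (SD, n = 3, limma adjusted p = 4.43e-06), the 46th lowest of 4075 genes, with 1 array of treatment 2 at 1.18 and the other 11 negative. Without treatment 2 its mean was −0.68, and the median of its 12 arrays was −0.69. Sox11 averaged −0.45 ± 0.073 (SD, n = 3, limma adjusted p = 1.64e-05), with forward arrays at −0.17 and reverse arrays at −0.73.

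Sox15 and Sox21 lay on the other side. Sox15, a factor of muscle precursors and trophoblast, had 0.44, 0.10 and 0.11 (mean 0.22 ± 0.19, limma adjusted p = 0.0146). Sox21, which opposes SoxB1 factors in neural progenitors, had 0.39, 0.18 and 0.04 (mean 0.20 ± 0.17, limma adjusted p = 0.0183). In both, treatment 1 stood above the others and the call was lost without it (0.11 for each, limma adjusted p = 0.328 and 0.311). Forward arrays put Sox15 at −0.15 and reverse arrays at 0.59, with 8 of 12 arrays positive. Sox21 had 0.35 over forward and 0.051 over reverse arrays, with 6 of 12 positive. On slide type 1, Sox8, a SoxE factor of neural crest and glia, had −0.35, −0.37 and −0.26, negative on 11 of 12 arrays (mean −0.33 ± 0.058, limma adjusted p = 0.0043). Without centring it had −0.024, and without treatment 1 it did not pass (limma adjusted p = 0.057). Forward arrays put Sox8 at −0.15 and reverse arrays at −0.51. It did not pass on forward arrays alone (limma adjusted p = 0.107). Sox13 had −0.071 ± 0.055.

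Of 7 forkhead factors on slide type 2, 4 passed, or 57.1%, near the 50.4% of all genes there. Of 7 on slide type 1, 0 passed in limma, where 11.4% of all genes did, and 1 had an unadjusted p under 0.05. Foxp1, a repressor in heart and lung, had −0.34, −0.38 and −0.28 (mean −0.33 ± 0.051, limma adjusted p = 0.000255). Its forward arrays averaged −0.10 and its reverse arrays −0.56. In treatment 2 its forward arrays had 0.40 and 0.42 and its reverse arrays −1.19 and −1.13. Foxm1, which drives genes of mitosis, had −0.34, −0.32 and −0.31 (mean −0.32 ± 0.014, limma adjusted p = 0.000269). Forward arrays put Foxm1 at −0.013 and reverse arrays at −0.63. Foxo1, which insulin signalling keeps out of the nucleus, was the positive member, at 0.32, 0.21 and 0.31, on 8 of 12 arrays. Its mean was 0.28 ± 0.064 (limma adjusted p = 0.00105). In treatment 1 its forward arrays had 0.85 and 0.77 and its reverse arrays −0.14 and −0.20. In treatment 2 its forward arrays had −0.43 and −0.30 and its reverse arrays 1.04 and 0.52. Foxk2 had −0.16 ± 0.086 (limma adjusted p = 0.0313) and lost its call without treatment 1 or 3. Those that did not pass on slide type 2 were Foxj2, Foxn3 and Foxn4, at 0.049, 0.12 and 0.046, and on slide type 1 the 7 members ranged from −0.17 (Foxk2) to 0.094 (Foxj3), with Foxo3 at −0.076 ± 0.083.

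**Figure D3:**
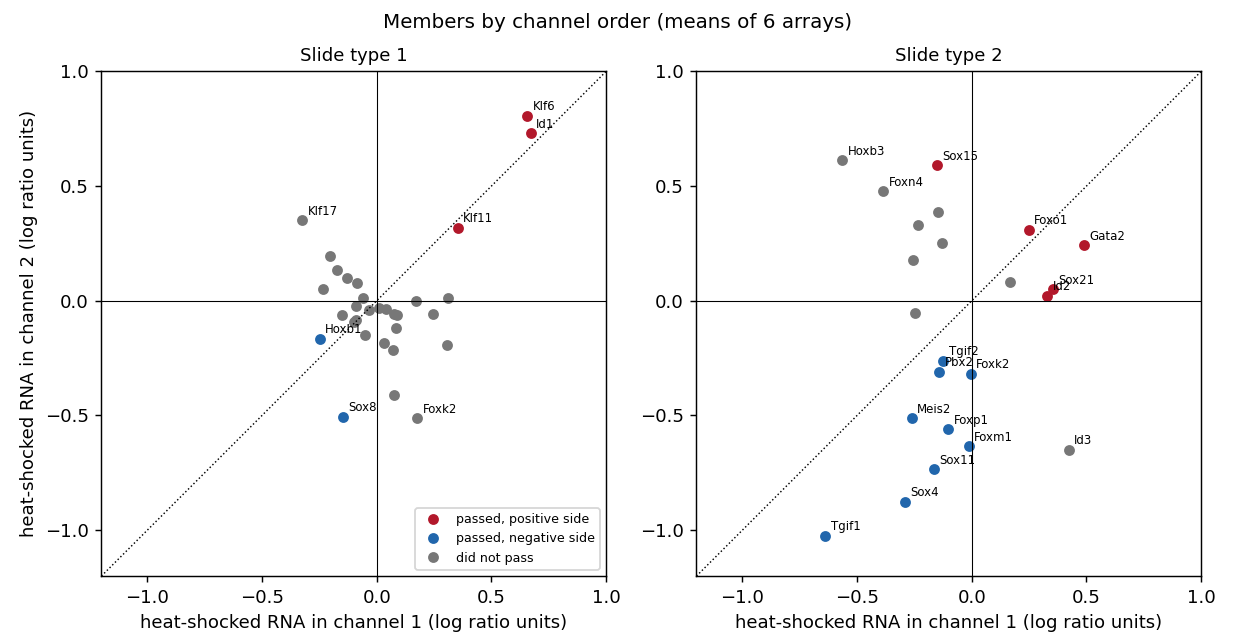
Mean log ratio (units) of each member over its 6 forward arrays (horizontal) and its 6 reverse arrays (vertical), by slide type; colour shows the call, and the dotted line is equality. Id1, Klf6 and Klf11 lie near the line on slide type 1, whereas on slide type 2 members such as Id3 (0.42 and −0.65) and Hoxb3 (−0.56 and 0.61) lie on opposite sides of 0.

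Gata factors are zinc finger proteins of blood, heart and endoderm. Gata2, which maintains blood progenitors, had 0.37, 0.28 and 0.45 on slide type 2, positive on 11 of 12 arrays. Its mean was 0.37 ± 0.086 (SD, n = 3, limma adjusted p = 0.000136), the 76th highest of 4075 genes and the highest of the members there. The 2 probes of Gata2 on slide type 1 had 0.06 and −0.066 and the gene did not pass (−0.003 ± 0.11, limma adjusted p = 0.986). Gata4, a heart and endoderm factor, had 0.24, 0.07 and 0.06 (mean 0.13 ± 0.099, limma adjusted p = 0.0879; it passed without treatment 2, limma adjusted p = 0.0496). Gata1, Gata3 and Gata6 on slide type 1 had 0.056, 0.085 and −0.005, and 0 of the 4 genes of this family there had an unadjusted limma p under 0.05.

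The remaining members of slide type 1 also lay close to 0. Heyl, a repressor of the Hes and Hey type, had −0.12, 0.095 and −0.30, with no common side (limma adjusted p = 0.427). The T-box genes Tbx19, of the pituitary, and Tbx20, of the heart, had −0.015 and 0.008. Twistnb, the polymerase subunit, had −0.037 ± 0.056 over 3 probes.

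Of the 49 members, 5 had probes on both slide types. Foxk2 had alike means, −0.17 ± 0.13 and −0.16 ± 0.086, though it passed only on slide type 2. Its channel orders lay apart on both. Forward arrays averaged 0.18 and reverse arrays −0.51 on slide type 1, and −0.004 and −0.32 on slide type 2. Gata2, Foxo1 and Meis2 had means near 0 on slide type 1 and passed on slide type 2. Passing was more common over all genes there (50.4% against 11.4%). On slide type 1 forward arrays put Gata2 at −0.20 and reverse arrays at 0.20. It was called negative on those forward arrays alone (limma adjusted p = 0.0472). Foxn3 had −0.018 ± 0.026 and 0.12 ± 0.054 and passed on neither, with its 2 probes on slide type 2 at 0.039 and 0.20. The slide types carry different probes for a gene and were tested separately, so no test set them against each other.

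**Figure D4:**
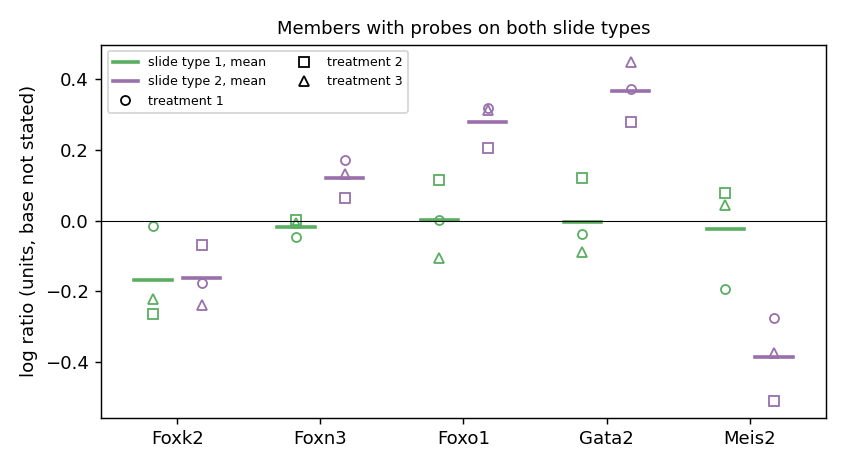
Log ratios (units) of the 5 members with probes on both slide types; symbols are treatments and bars their means. Foxk2 gives −0.17 and −0.16, each the mean of forward and reverse arrays that lay apart. The means of Gata2, at −0.003 and 0.37, and Meis2, at −0.023 and −0.39, lie near 0 on slide type 1. There the Gata2 mean joins forward arrays at −0.20 and reverse arrays at 0.20.

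Agreement between forward and reverse arrays was counted as well. All 5 called members of slide type 1 lay on the same side in both orders, as did 429 of the 437 called genes there. On slide type 2 this held for 13 of 14 called members, Sox15 being the exception, and for 1270 of the 2052 called genes. A side here is only the sign of the mean of an order. Among the 13, an order lay near 0 for Foxk2 (−0.004), Foxm1 (−0.013), Id2 (0.022) and Sox21 (0.051). When slide type 2 was tested with limma on forward arrays alone, 44 of all genes were positive, 6 negative and 0 of them members. On reverse arrays alone these counts were 13 and 11, with Tgif1 as the member. The orders lay far apart in treatment 2: Id3 had 1.13 and 0.93 on its forward arrays against −1.09 and −0.99 on its reverse arrays there. The part of the channel in the members' values was not tested beyond these values.

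**Figure D5:**
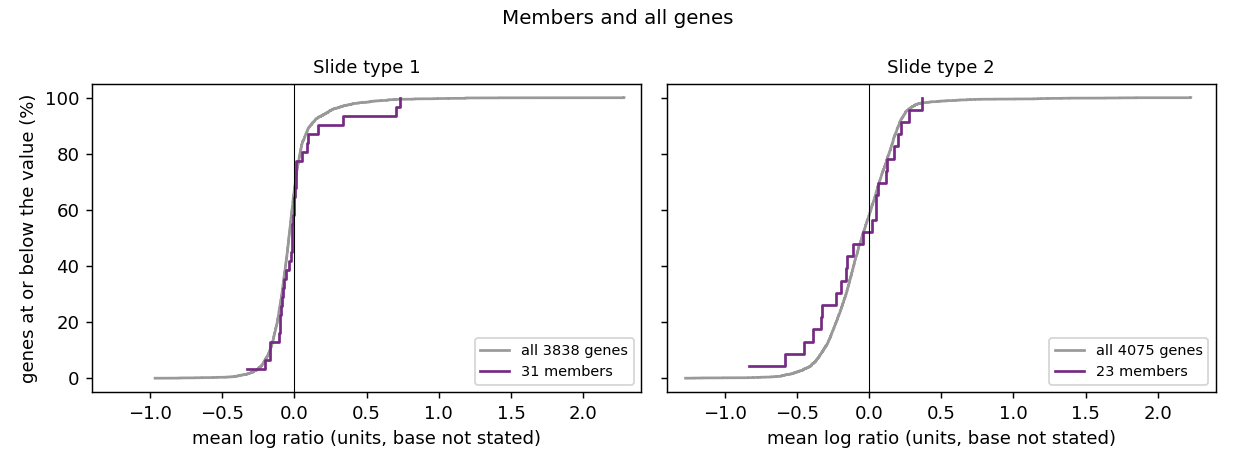
Cumulative share (%) of genes at or below each mean log ratio (units), for the members (purple) and for all genes (grey) of each slide type. The members' curves follow those of all genes near 0, and Klf6 and Id1 (0.73 and 0.70) and Tgif1 (−0.83) lie at the ends.

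Genes that act on or with these factors were taken from lists written down with the members. Of the BMP and transforming growth factor beta list, 0 of 7 passed on slide type 1 (2 with an unadjusted limma p under 0.05), and of 11 on slide type 2 there was 1 positive call and 4 negative ones. Smad5 and Smad4, which carry the BMP signal to the nucleus, had −0.37 ± 0.16 and −0.32 ± 0.078, and Skil, a corepressor of Smad proteins, 0.29 ± 0.051. Forward arrays put Smad4 at −0.038 and reverse arrays at −0.61. Among E proteins and other helix-loop-helix partners of Id, 0 of 2 passed on slide type 1 (1 with an unadjusted limma p under 0.05), and on slide type 2 Tcf3 had −0.26 ± 0.18 and Tcf4 0.25 ± 0.14, 2 of 4 measured. Of the Notch list, 1 of 6 was positive on slide type 1, the gamma-secretase subunit Ncstn at 0.22 ± 0.055. On slide type 2, 3 of 9 were negative. Among them were the glycosyltransferase Mfng at −0.30 ± 0.053 and the secretase subunit Psenen at −0.29 ± 0.082. The shares called on slide type 2 were 45.5% for the BMP list, 50% for the Id partner list and 33.3% for the Notch list. Of all genes, 50.4% were called there, 31.9% on the negative side, and 11.4% on slide type 1.

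Polycomb and trithorax genes, which hold Hox genes off or on, gave 2 positive calls among 13 on slide type 1. Of all genes there, 5.73% were positive. The 2 called genes were Jarid2 at 0.22 ± 0.061 and Ash2l at 0.23 ± 0.12. Both were negative and uncalled on slide type 2, at −0.099 and −0.079 (limma adjusted p = 0.212 and 0.287). On slide type 2 the list gave 1 positive and 7 negative among 17, led by Men1 at −0.51 ± 0.054 and Ezh1 at −0.48 ± 0.18. The list's share called there, 47.1%, was close to the 50.4% of all genes. Developmental factors outside the families gave 3 calls among 17 on slide type 1, 2 of them negative. On slide type 2 they gave 5 among 14, all negative. The shares called were 17.6% and 35.7%, beside 11.4% and 50.4% of all genes. Hmga2, a chromatin protein of embryonic cells, was negative on both, at −0.20 ± 0.047 and −0.49 ± 0.11, and Etv5, a target of FGF signalling, had −0.39 ± 0.095. Nr6a1, an orphan nuclear receptor, had 0.24 ± 0.035 on slide type 1 over 3 probes that disagreed (−0.084 to 0.80).

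The arrays give ratios and no levels, so the embryo's tissues could not be checked by the level of their markers. Among cell type markers on slide type 2, 4 of 5 of the mesenchyme and neural crest list passed on the negative side. Of all genes there, 31.9% did. The 4 were Col1a1, Col1a2, Col3a1 and Pdgfrb, at −0.60, −0.35, −0.35 and −0.28, and the other gene, Vim, was uncalled at 0.11. Forward arrays put Col1a2 at 0.03 and reverse arrays at −0.73, and the probes of Col3a1 ran from −0.51 to 0.08. The list's median was −0.35 and its range −0.60 to 0.11. Its 1 gene on slide type 1 had 0.11 and was not called. The neural list had 1 measured gene there, Gap43 at −0.29, and 1 of 3 negative on slide type 1, Tubb3 at −0.21. The yolk sac endoderm list had 1 of 2 negative on slide type 2, Apoc2 at −0.26, and 0 of 6 called on slide type 1. The trophoblast list had 1 negative of 1 on slide type 2, Krt18 at −0.19, and 0 called of 9 on slide type 1, the endothelial list 1 negative of 3 on slide type 1, Esam at −0.27, and the erythroid list 0 called of 1 and of 5, the 1 being the member Gata1. No heart muscle marker was called, with 2 measured on slide type 1 and only the member Gata4 on slide type 2. Among the lists with no call, an unadjusted limma p under 0.05 was reached by Hand1 on slide type 1 (−0.20), which is in the heart, trophoblast and Id partner lists, and by Hbb-y of the erythroid list on slide type 2 (−0.135), both named after their values were seen. Fewer cells of a type and less RNA per cell cannot be told apart in whole embryos, and the part of these markers in the members' values was not tested.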

How the data were processed

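Arrays with 2 channels compared heat-shocked and control RNA of mouse embryos. The values are the log ratios deposited by the authors, treated as a score because their base, numerator, background correction and normalization are not stated; no spot intensities were used. Each of 2 tables, called slide types, held 7680 probes and 12 arrays. Of these probes 4749 had 1 symbol, 227 several and 2704 none on slide type 1, and 4935, 275 and 2470 on slide type 2, by the platform annotation given with the tables. Array medians ran from −0.67 to 0.65 and from −1.51 to 0.24, and were subtracted.

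Reverse arrays were multiplied by −1. A gene is the mean of its probes (41 of members on slide type 1, 28 on slide type 2) and of a treatment's arrays. All genes of a slide type were fitted with limma 3.58.1 in R 4.3.3 (lmFit and eBayes on an intercept, Benjamini-Hochberg adjustment, threshold 0.05), a fit tested on simulated data. The number of arrays limits the precision.

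Members and lists were chosen with earlier results of these data known. Named by rule were members that passed with the same sign in all treatments, up to 10 on each side per slide type, those on both slide types, fixed symbols, and up to 3 genes of each pathway list with the smallest p; the other members were described after their values were seen. Treatments share numbers but were not paired across groups, since each array holds both RNAs. Alternatives for centring, scale, channel order, repeat arrays, probes, spread, threshold and treatments are in the closing section. Figures were drawn with matplotlib 3.10.9.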

Additional observations from a re-analysis of the deposited data

Results flagged for a closer look

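Among the 6 arrays of each channel order, in 66 groups of arrays of named members, 3 had an array far from the rest. Chance alone would set 1 in 20 such groups apart if the 6 values were independent. Here each treatment gave a pair of the 6 and genes share arrays, so this rate is only a guide. Id1 had a forward array of treatment 1 at 0.15, where the others lay between 0.64 and 0.91. Sox8 had a forward array of treatment 1 at 0.03 and the others between −0.21 and −0.15. Foxn3 on slide type 1 had a forward array of treatment 2 at 0.32 and the others between −0.02 and 0.10.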

How the results depend on the processing

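The counts on slide type 1, 3 positive and 2 negative members, became 6 and 4 on forward arrays alone. The negative count was 0 without centring and 1 both with centring on probes of 1 symbol and on arrays with the suffix alone; with a tested minimum change of 0.58 units both counts were 0. On slide type 2, from 5 positive and 9 negative, they were 1 and 2 without centring and 8 and 7 with centring on probes of 1 symbol. With arrays scaled to one spread 1 was positive and 6 negative, on forward arrays alone 0 and 0, on reverse arrays alone 0 and 1, on arrays with the suffix alone 3 and 9, and with the minimum change 0 and 1. Leaving out a treatment gave 2 to 3 positive and 0 to 1 negative on slide type 1, and 2 to 7 positive and 6 to 10 negative on slide type 2. Among called members 2 changed side: Hoxb1 at 0.098 without centring and Sox15 at −0.15 on forward arrays alone. Uncalled members changed side too, among them Id3 (0.42 on forward arrays alone) and Foxn3 on slide type 2 (−0.15 there). The replicate block, with treatment as a random block over means by order, gave 3 and 3 on slide type 1 and 5 and 10 on slide type 2, with an estimated correlation of 0.021 and −0.822. The negative value means that the forward and reverse means of a treatment on slide type 2 tended to deviate in opposite directions. Their average can then differ less among treatments than single arrays do. Tgif1 had an SD of 0.021 among treatments and arrays from −1.32 to −0.28. Over the named members and all alternatives, 423 values stayed called on their side or stayed uncalled, on either side of 0, 89 lost the call, 14 gained it and 2 were called ones that changed side. The cause was not tested. Dim and saturated spots cannot be set apart in ratios.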
